A study of Mus musculus with 8 samples.

Results

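The 10 genes described here carry fatty acids into skeletal muscle cells and burn them, together with 1 gene of ketone body use: Cd36, Fabp3, Cpt1b, Cpt2, Slc25a20, Acadl, Acadvl, Hadha, Hadhb and Bdh1. Their UMIs (tags that let each captured RNA molecule be counted once) were taken from single-nucleus RNA sequencing of mouse gastrocnemius, a calf muscle, out of 21207 gene symbols named in all 8 libraries. The first 9 were listed for their place in the pathway. Bdh1 was added because earlier work on these data had seen it higher in oxidative fast nuclei of Old mice, so its Old against Young values are a description and were given no test.

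All 4 groups were wild-type (WT) C57BL/6 mice with muscle frozen before nuclei were released. Young mice were 3 months old and Old mice 20 months old. Running mice were 11 months old at the start and ran on a treadmill for 2 months, and Sedentary mice of the same age did not train. Each group had 2 libraries, 1 made with 10x Genomics droplets (replicate 1) and 1 in a second set (replicate 2), for which the study's methods name the DNBelab C system of MGI. How many animals a library held, and their sex, are not given in the sources used here, so the spread between libraries may be technical.

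Muscle fibres take up and store fat and break it down in mitochondria. Long-chain fatty acids enter through the membrane, are bound by a carrier in the cytosol, are tied to carnitine to cross the inner mitochondrial membrane, and are then shortened by repeated rounds of beta-oxidation. Slow fibres and oxidative fast fibres (types IIa and IIx) rest on this route more than glycolytic type IIb fibres do, and ketone bodies made by the liver in fasting or long exercise are a further mitochondrial fuel. In mice the gastrocnemius is mostly fast muscle.

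The 8 libraries held 64803 retained nuclei of 65280, between 4228 and 4772 in the second set and between 10587 and 12991 in the 10x set. Median depth ran from 909 to 3001 UMIs per nucleus. All 5 general myonuclear markers were detected in all 8 libraries, as the tissue label implies. A pair of libraries stood apart. In Old replicate 2, 76.9% of nuclei stayed unnamed, against between 7.20% and 20.1% in the other 7 libraries, and 3351 of the 3546 nuclei of a cluster led by very long genes came from it. In Sedentary replicate 1, a type IIb-like cluster held 1328 of its 1466 nuclei from that library, and 1575 of the 2585 nuclei of an unnamed cluster also came from it. Results of the members that rest on either library are given with and without it. The 10x libraries shared 220 cell barcodes.

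**Figure D1:**
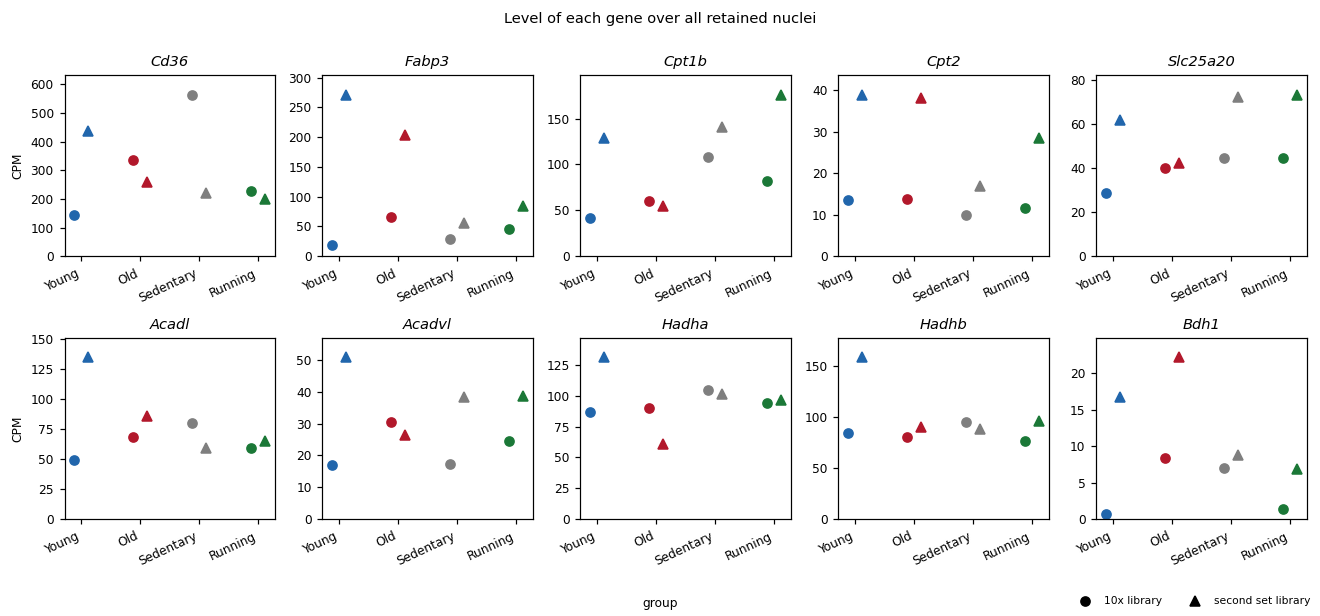
CPM (UMIs scaled to the same total in every library) of each of the 10 genes over all retained nuclei of a library (vertical axes, linear, starting at 0) in the 4 groups (horizontal axis), with circles for 10x libraries and triangles for libraries of the second set. Cd36 lay between 144 and 564 CPM. The libraries of a comparison did not overlap for Hadha and Bdh1, both lower in Running than in Sedentary, and overlapped in every other case.

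Levels are CPM, that is UMIs scaled to the same total in every library or class, without the mitochondrial and ribosomal protein genes. Where 2 values are given for a group, the 10x library comes first. Nuclei were grouped by marker genes into classes called like a fibre type. Type IIa/IIx-like nuclei were made up of a Myh1-led and a Myh2-led cluster in each library set. These lead with the myosin genes of IIx and IIa fibres, although in the second set Myh4, the myosin of IIb fibres, stood highest in both clusters, at 9731 against 2140 for Myh1 in the Myh1-led cluster and 7419 against 5919 for Myh2 in the Myh2-led cluster. In the slow-like cluster of the second set Myh4 was also highest, at 11230 against 5512 for Myh7, the myosin of slow fibres. The clusters were made without the 10 genes, so the levels by class are descriptions without a test.

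Cd36 is a membrane protein that takes up long-chain fatty acids, and lies on the minus strand of chromosome 5 at 17781690 to 17888801 (GRCm38). Over all nuclei it stood at 144 and 437 in Young, 335 and 259 in Old, 564 and 221 in Sedentary and 227 and 199 in Running. In IIa/IIx-like nuclei the values were 582 and 546 in Young, 823 and 392 in Old, 955 and 680 in Sedentary and 570 and 493 in Running. The Running libraries thus lay below both Sedentary libraries there, while Old and Young overlapped. IIb-like nuclei held 57.8 and 128 in Young, 66.0 and 168 in Old, 150 and 80.2 in Sedentary and 46.0 and 82.9 in Running. The median fold of IIa/IIx-like over IIb-like was 7.42, and it ranged over the 8 libraries from 2.33 to 12.5. Endothelial-like nuclei, which line vessels and take up fatty acids from blood, held between 1298 and 1782 in the 4 10x libraries, and adipocyte-like nuclei between 791 and 1546 in the 5 libraries with at least 20 of them. In fibro-adipogenic progenitor-like nuclei, a connective tissue class, Cd36 was 22.8 in Young, 74.7 in Old, 177 in Sedentary and 60.7 in Running. These levels stood at between 0.395 and 1.32 times those in IIb-like nuclei of the same library (median 1.15). In the 10x libraries of Old, Sedentary and Running, Cd36 UMIs in IIb-like nuclei therefore cannot be told apart from background. In Young, the library at 0.395, IIb-like nuclei held more. Using the connective tissue nuclei as background takes them to make none of the gene themselves. That was not tested, here or for the other members. The second set had no nuclei of this connective tissue class, and no such comparison was made there.

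Fabp3, the fatty acid carrier of the cytosol in heart and oxidative muscle (chromosome 4, 130308595 to 130315463, plus strand), differed between the library sets. All nuclei held 18.3 and 271 in Young, 65.3 and 204 in Old, 28.4 and 55.5 in Sedentary and 45.0 and 84.6 in Running. Slow-like nuclei, with at least 20 in 6 libraries, held between 84.6 in Sedentary replicate 1 and 1924 in Old replicate 2, above the Myh2-led nuclei of the same library in 5 of 6. In IIa/IIx-like nuclei the values were 80.5 and 139 in Young, 197 and 154 in Old, 55.5 and 101 in Sedentary and 120 and 121 in Running, so that both Old libraries lay above both Young ones and both Running libraries above both Sedentary ones. The IIa/IIx-like level was a median of 3.37 times the IIb-like level (1.51 to 5.50). Slow-like nuclei exceeded IIb-like nuclei by a median of 8.01 (5.24 to 20.8 in 6 of 6 libraries). Fibro-adipogenic progenitor-like nuclei of the 10x set held Fabp3 at between 0.419 and 1.66 times the IIb-like level (median 0.879), above 1 in Old and Sedentary.

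Cpt1b makes acyl-carnitine at the outer mitochondrial membrane of muscle and sets the pace of entry (chromosome 15, 89416405 to 89425863, minus strand). All nuclei held 41.6 and 129 in Young, 60.6 and 54.3 in Old, 108 and 140 in Sedentary and 81.8 and 176 in Running. In IIa/IIx-like nuclei the range over libraries was 77.2 in Old replicate 2 to 274 in Sedentary replicate 2, and in IIb-like nuclei 36.4 in Old replicate 2 to 143 in Running replicate 2. Its IIa/IIx-like level was a median of 2.03 times the IIb-like level (1.10 to 3.06), and its Myh2-led level exceeded the Myh1-led level in all 8 libraries by between 1.46 and 1.73. Nuclei outside muscle fibres held less of it. Endothelial-like, fibro-adipogenic progenitor-like and (in 4 of 5 libraries) adipocyte-like nuclei held less than IIb-like nuclei, with medians of 0.652, 0.413 and 0.355 of that level.

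Slc25a20 exchanges acyl-carnitine for carnitine across the inner membrane, and Cpt2 returns the acyl group to coenzyme A inside it. Slc25a20 (chromosome 9, 108662088 to 108684641, plus strand) held 28.5 and 62.1 in Young, 40.1 and 42.2 in Old, 44.8 and 72.2 in Sedentary and 44.8 and 73.4 in Running over all nuclei. Cpt2 (chromosome 4, 107903981 to 107923610, minus strand) held 13.5 and 38.9 in Young, 13.7 and 38.1 in Old, 9.88 and 16.9 in Sedentary and 11.6 and 28.4 in Running. The Old and Young values of Cpt2 lay close together in both library sets, while both groups of the running comparison overlapped. Cpt2 had the smallest median fold of IIa/IIx-like over IIb-like nuclei, 1.49 (1.07 to 2.12), against 2.08 for Slc25a20 (1.47 to 2.76). Adipocyte-like nuclei exceeded IIb-like nuclei in Cpt2 in 5 of 5 libraries, by a median of 5.29 (4.17 to 9.47), and fibro-adipogenic progenitor-like nuclei did so in 4 of 4, by a median of 2.01, so Cpt2 UMIs in IIb-like nuclei of the 10x set cannot be told apart from background. Fibro-adipogenic progenitor-like nuclei held Slc25a20 at between 0.671 and 1.30 times the IIb-like level (median 0.764), above 1 in 1 of 4 libraries.

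**Figure D2:**
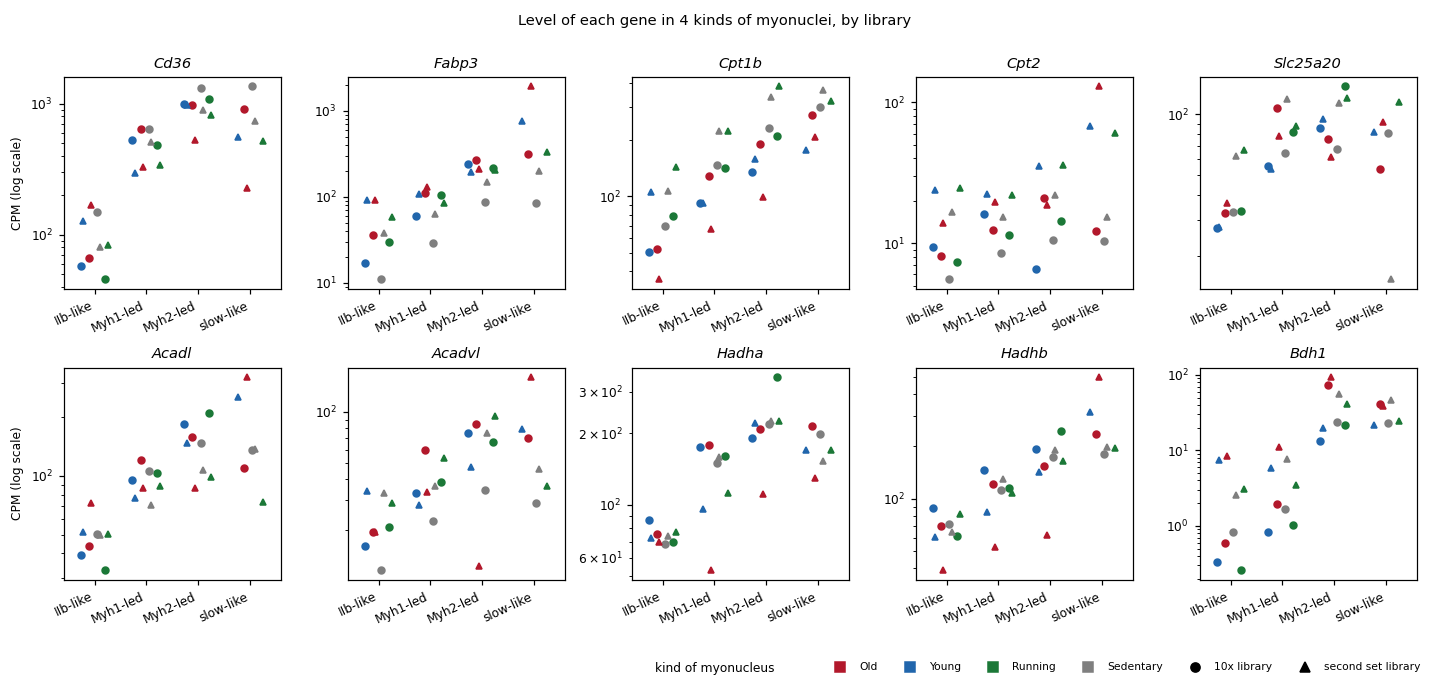
CPM (log axis) of each gene in 4 kinds of myonuclei (horizontal axis) by library, coloured by group, with circles for 10x libraries and triangles for the second set. Each point is 1 library with at least 20 nuclei of that kind. For Bdh1 the Myh2-led points (13.1 to 92.8) stand above the IIb-like (0.262 to 8.41) and Myh1-led points (0.832 to 11.2).

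Acadl and Acadvl are the long-chain and very-long-chain acyl-CoA dehydrogenases that open each round of beta-oxidation. Acadl (chromosome 1, 66830839 to 66863277, minus strand) held 49.0 and 135 in Young, 68.3 and 85.5 in Old, 79.9 and 59.1 in Sedentary and 58.9 and 65.0 in Running over all nuclei. Acadvl (chromosome 11, 70010183 to 70015411, minus strand) held 16.9 and 50.9 in Young, 30.4 and 26.4 in Old, 17.3 and 38.6 in Sedentary and 24.6 and 38.7 in Running. For both genes Old was above Young in the 10x set and below it in the second set. The IIa/IIx-like level was a median of 2.23 times the IIb-like level for Acadl (1.19 to 3.59) and 2.17 times for Acadvl (1.03 to 3.75). Acadl was also higher in adipocyte-like than in IIb-like nuclei in 4 of 5 libraries. In fibro-adipogenic progenitor-like nuclei it was higher than in IIb-like nuclei in 4 of 4 (median 1.34, 1.26 to 1.83), so its UMIs in IIb-like nuclei of the 10x set cannot be told apart from background. Acadvl in fibro-adipogenic progenitor-like nuclei was between 0.710 and 1.28 times the IIb-like level (median 0.813), above 1 in 1 of 4 libraries.

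Hadha and Hadhb encode the alpha and beta subunits of the mitochondrial trifunctional protein, which carries out the later steps of each round on long chains. The genes lie head to head on chromosome 5, Hadha at 30118304 to 30155162 on the minus strand and Hadhb at 30155248 to 30184593 on the plus strand. The stretch between their outermost annotated exons is shown because both genes are read away from it. It spans chr5:30155163-30155247, 85 bases on the plus strand of GRCm38 from RefSeq, and capitals mark the 2 matches to the GC box GGGCGG.
Hadha/Hadhb: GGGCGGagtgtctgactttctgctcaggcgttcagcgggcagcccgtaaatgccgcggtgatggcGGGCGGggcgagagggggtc
The stretch was 69.4% G and C. Searched on both strands, the GC box occurred in the 250 bases before a start for 6 of the 9 genes with a RefSeq window, Acadl, Cd36, Cpt2, Hadha, Hadhb and Slc25a20, and in 32.7% of 32851 windows over all genes. The windows of Hadha and Hadhb overlap, so these are not 2 separate cases. Members were counted by gene (10 windows for 9 genes), whereas the share over all genes is by window. The nuclear receptor element AGGTCA was found for Acadvl and Cd36 (14% of all windows). The estrogen-related receptor element TNAAGGTCA (1.14%), the DR1 element AGGNCANAGGNCA (0.338%), which holds 2 near-copies of it, and the MEF2 element CTANNNNTAG (3.2%) were found in the window of no member.

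Over all nuclei Hadha held 86.7 and 131 in Young, 90.3 and 61.3 in Old, 105 and 102 in Sedentary and 94.4 and 96.6 in Running. Hadhb held 84.1 and 158 in Young, 80.2 and 89.6 in Old, 95 and 87.6 in Sedentary and 75.7 and 96.2 in Running. Hadhb was the only member besides Bdh1 with the same direction of Old against Young in both sets, lower in each. The ratio of Hadha to Hadhb UMIs lay between 0.685 in Old replicate 2 and 1.25 in Running replicate 1 over all nuclei. In IIa/IIx-like nuclei it lay between 1.17 and 1.40 in all 8 libraries. The IIa/IIx-like level was a median of 2.30 times the IIb-like level for Hadha (1.02 to 2.68) and 1.85 times for Hadhb (1.43 to 2.44).

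These 9 genes shared a pattern over fibre classes. They were listed for their place in the pathway, but with earlier results of these data known. The pattern may therefore not be independent of the listing. Among genes with more than 3 UMIs in both classes of every library, all 9 were higher in IIa/IIx-like than in IIb-like nuclei in 8 of 8 libraries. This held for 820 of 7265 genes tested alike (11.3%), and the median fold was 2.17 for the 9 genes and 1.02 for all genes. Between the Myh2-led and Myh1-led clusters, 5 of the 7 members above that floor were higher in the former in all 8 libraries, against 8.65% of 4542 genes, with median folds of 1.5 and 1. Clusters were drawn from the same nuclei, and so these counts carry no p-value. The summed adipocyte markers were also higher in IIa/IIx-like than in IIb-like nuclei in 8 of 8 libraries, at between 241 and 630 against between 146 and 563, and their part in the pattern was not tested. These markers include Acsl1 and Pparg, which are fat metabolism genes themselves. In IIa/IIx-like nuclei Adipoq, Lep and Retn were at 0 in Sedentary replicate 2, and Lep in Young replicate 1 and Running replicate 2. Adipoq was at 0 in IIb-like nuclei of Sedentary replicate 2. Bdh1 was not above the floor in every library.

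**Figure D3:**
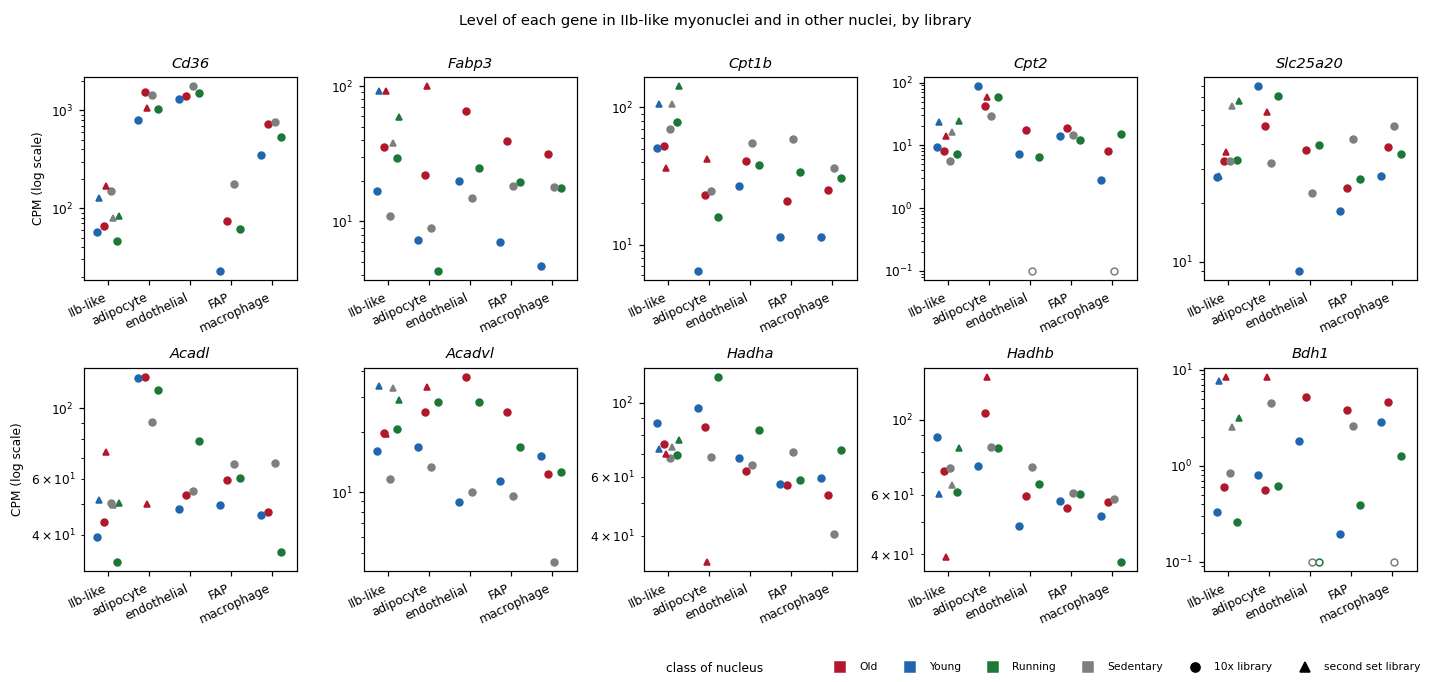
CPM (log axis) of each gene in IIb-like myonuclei and in adipocyte-like, endothelial-like, fibro-adipogenic progenitor-like (FAP) and macrophage-like nuclei (horizontal axis), with each library coloured by group. Hollow points at the foot of a panel had no UMI. Cd36 reached 1782 in endothelial-like nuclei, and Cpt2 reached 88.4 in adipocyte-like nuclei against at most 24.5 in IIb-like nuclei.

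Bdh1, the mitochondrial enzyme that interconverts the ketone bodies beta-hydroxybutyrate and acetoacetate, lies on the plus strand of chromosome 16 at 31422280 to 31458901. Bases before its RefSeq starts are shown because Bdh1 is the member whose level varied most between fibre classes. They stop where an annotated exon begins, at chr16:31422047-31422279 (233 bases) and chr16:31428503-31428747 (245 bases), both on the plus strand of GRCm38. The windows hold none of the 5 motifs, so no letter is in capitals.
Bdh1, first start: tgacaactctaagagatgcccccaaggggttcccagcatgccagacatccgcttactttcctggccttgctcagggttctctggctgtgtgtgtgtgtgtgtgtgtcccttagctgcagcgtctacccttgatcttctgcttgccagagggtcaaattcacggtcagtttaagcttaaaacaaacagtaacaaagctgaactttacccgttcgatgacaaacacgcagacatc
Bdh1, second start: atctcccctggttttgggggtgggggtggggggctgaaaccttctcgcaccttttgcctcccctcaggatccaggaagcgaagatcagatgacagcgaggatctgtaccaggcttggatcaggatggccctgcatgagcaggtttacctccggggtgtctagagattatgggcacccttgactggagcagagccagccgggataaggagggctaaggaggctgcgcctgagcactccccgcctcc

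Among myonuclei the level of Bdh1 was highest in Myh2-led and slow-like nuclei. In Myh2-led nuclei it stood at 13.1 (4 UMIs, exact 95% Poisson interval 3.58 to 33.7) and 19.8 (37 UMIs, 13.9 to 27.3) in Young. Old libraries held 74.3 (226 UMIs, 64.9 to 84.7) and 92.8 (15 UMIs, 51.9 to 153). Both Old libraries lay above the other 6, but not all of their intervals did. Sedentary libraries held 23.6 (72 UMIs) and 55.9 (23 UMIs, 35.4 to 83.8), and Running libraries 21.6 (27 UMIs) and 41.6 (22 UMIs, 26.1 to 63.0). The interval of Sedentary replicate 2 overlapped those of both Old libraries, and that of Running replicate 2 overlapped the one of Old replicate 2. Intervals here cover counting error only. In Myh1-led nuclei the level was between 0.832 and 11.2 and in IIb-like nuclei between 0.262 and 8.41, with at most 19 UMIs in any library and class. The Myh2-led level was a median of 11.9 times the Myh1-led level (3.38 to 38.3) in the 7 libraries where both had more than 3 UMIs, and higher in all 7. In Old replicate 1, fibro-adipogenic progenitor-like nuclei (29 UMIs) held Bdh1 at 6.36 times the IIb-like level. Myh1-led nuclei held at most 3.96 times the IIb-like level in any library. Bdh1 UMIs of IIb-like and Myh1-led nuclei of Old replicate 1, the library with the fold of 38.3, therefore cannot be told apart from background.

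After every nucleus had been thinned to 500 UMIs, a Bdh1 UMI was found in 4.97% of Myh2-led nuclei in Old replicate 1 (3.61 to 6.81, 95% Wilson interval) and 4% in Old replicate 2 (1.85 to 8.45). In the other 6 libraries the share was between 0.868% and 2.64%. Without thinning the shares were 23.2% and 6.67% in Old and between 3.25% and 6.81% in the others. In fibro-adipogenic progenitor-like nuclei, which stand for the background, the thinned share was 0.0974% in Old (3 of 3080 nuclei) and 0 in the other 3 10x libraries, which allows a share of up to 0.388% in Sedentary, the smallest of them. Slow-like nuclei held Bdh1 at between 21.5 (Young replicate 2, 22 UMIs) and 45.9 (Sedentary replicate 2, 3 UMIs) in 6 libraries. The values of Old replicate 2 and Running replicate 2 rest on 5 and 4 UMIs. Of all Bdh1 UMIs of Old replicate 1, 69.5% came from Myh2-led nuclei, while in Old replicate 2 74.5% came from unnamed nuclei and 13.6% from Myh2-led nuclei.

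**Figure D4:**
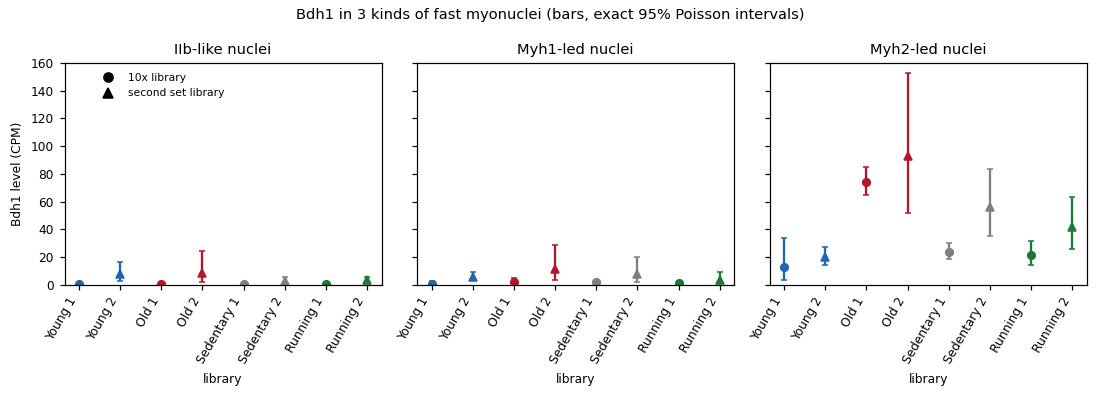
Bdh1 level in CPM (vertical axis, linear) in IIb-like, Myh1-led and Myh2-led nuclei of the 8 libraries (horizontal axis), with exact 95% Poisson intervals as bars. In Myh2-led nuclei the Old libraries reach 74.3 and 92.8 and the Young libraries 13.1 and 19.8.

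In the fit of the Myh2-led nuclei Bdh1 was higher in Old than in Young by 2.42 on the log2 scale (SE 0.45), and leaving out each library in turn gave between 2.13 and 2.67. Bdh1 was chosen for this rise, so the fitted values in this paragraph describe it and are no test of it. Without Old replicate 2 the value was 2.67 (SE 0.51), and without Sedentary replicate 1 it was 2.40 (SE 0.49). Over all IIa/IIx-like nuclei, where levels were 2.22 and 10.9 in Young and 41.1 and 36.7 in Old, the difference was 2.88 (SE 0.59). There it was 1.71 without Old replicate 1 and 3.68 without Old replicate 2. In the 10x set the share of fibre-typed nuclei that were Myh2-led moved with it, and the values over both sets were 1.23% and 26.4% in Young and 13.1% and 15.7% in Old. Of the adipocyte markers, 4 and 7 of 8 had a UMI in Myh2-led nuclei of Young and 8 and 7 of 8 in Old, at summed levels of 444 and 369 in Young and 692 and 631 in Old. Adipoq, Cidec, Lep and Retn were at 0 in Young replicate 1, Adipoq in Young replicate 2 and Lep in Old replicate 2. All 7 fibro-adipogenic progenitor markers had a UMI in Myh2-led nuclei of these 4 libraries, at summed levels of 131 and 149 in Young and 324 and 303 in Old. The part of both marker lists in the difference was not tested, and adipocyte-like nuclei themselves held Bdh1 at between 0.561 and 8.35.

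The Old against Young comparison over all nuclei asked whether the genes changed with age. None of the other 9 genes passed the test (edgeR quasi-likelihood test on UMIs summed per library, Benjamini-Hochberg adjusted p of 0.05), and the share called among all 20329 genes was 0%. At an unadjusted p under 0.05 there were 558 genes and no member, and DESeq2 also called 0. The largest fitted differences were those of Hadha at -0.88 (SE 0.44, edgeR adjusted p = 0.693) and Hadhb at -0.86 (SE 0.39, edgeR adjusted p = 0.693). Without Old replicate 1 they were -1.62 and -1.29, and without Old replicate 2 they were -0.33 and -0.53. The median of the 9 was -0.42 against 0.19 over all genes, and 0.05 against -0.07 without Old replicate 2. The sign of that median rested on Old replicate 2. Within the 10x set 8 of the 9 genes were higher in Old and Hadhb was lower, whereas within the second set all 9 were lower in Old.

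As the clusters drew it, the mix of fibre classes moved the same way, and its part in the result was not tested. IIa/IIx-like and slow-like nuclei together made up 10.2% of fibre-typed nuclei in Young and 26.0% in Old in the 10x set, and 86.8% in Young and 61.9% in Old in the second set. The drop in the second set depended on how the fast nuclei were split. By myosin UMIs there were 2302 IIb-like and 652 IIa/IIx-like nuclei in Young and 607 and 200 in Old. The IIa/IIx-like share of fast nuclei was then not lower in Old. In Old replicate 2, moreover, 76.9% of nuclei were unnamed and lie outside these shares. Over all nuclei, more nuclei of an oxidative class and more RNA per nucleus cannot be told apart. With 2 libraries on each side, the smallest two-sided p of an exact permutation test is 0.333 for any single gene.

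Within fibre classes none of the same 9 genes passed the test by age. In IIb-like nuclei 0% of 15969 genes were called by edgeR (772 at an unadjusted p under 0.05, no member among them, and 3 genes called by DESeq2). In IIa/IIx-like nuclei 0% of 14745 genes were called (629 at an unadjusted p under 0.05, no member, and 27 by DESeq2, none a member). The medians of the 9 were -0.26 against 0.01 for all genes in IIb-like nuclei and 0.00 against 0.06 in IIa/IIx-like nuclei. In IIa/IIx-like nuclei the 2 library sets went opposite ways. There 8 of the 9 genes were higher in Old in the 10x set, and 7 were lower in Old in the second set. Leaving out each library gave medians between -0.74 and 0.26 in IIa/IIx-like nuclei and between -0.52 and -0.19 in IIb-like nuclei. Fabp3 stood at 0.65 in IIa/IIx-like nuclei (SE 0.32, edgeR adjusted p = 0.978), and at 1.01 without Old replicate 2 and 0.09 without Old replicate 1. Cpt1b stood at -0.69 in IIb-like nuclei (SE 0.37, edgeR adjusted p = 0.998), and at -0.19 without Old replicate 2 and -1.71 without Old replicate 1. In the Myh2-led nuclei alone 0% of 9697 genes were called by edgeR, with 316 and no member at an unadjusted p under 0.05.

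Whether the age difference itself differed between IIa/IIx-like and IIb-like nuclei was tested as an interaction for the 9 genes. None of them and 0% of 17237 genes were called (547 at an unadjusted p under 0.05, of the 9 genes Cpt1b and Acadvl). Cpt1b differed by 0.98 between the classes (SE 0.28, edgeR adjusted p = 0.838), with 0.73 and 1.05 when Old replicate 1 or replicate 2 was left out. Acadvl differed by 0.99 (SE 0.38, edgeR adjusted p = 1), and by -0.08 without Old replicate 1. Bdh1, chosen on this contrast, was given no test; its difference was 4.01 (SE 0.98), and 0.84 without Old replicate 1, where it rests on 3 UMIs in the IIb-like nuclei of Old replicate 2.

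**Figure D5:**
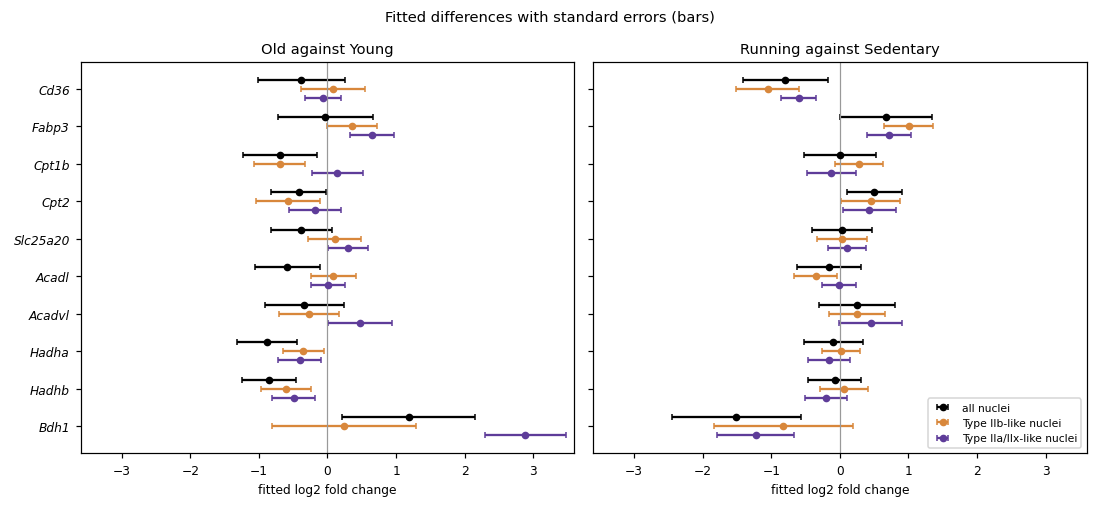
Fitted log2 fold changes (horizontal axes) of the 10 genes (vertical axis) by age (Old against Young) and by running (Running against Sedentary), with standard errors as bars, over all nuclei and in both fast fibre classes. Bars of most genes cross or lie near 0. Bdh1 in IIa/IIx-like nuclei stands at 2.88 in Old against Young, the comparison it was chosen on.

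Running against Sedentary asked whether treadmill training went with a change of these genes. Over all nuclei 0 of the 10 genes and 0% of 20329 genes were called by edgeR (98 at an unadjusted p under 0.05, no member, and none by DESeq2). Their median was -0.04, as was that of all genes. Acadvl, Cpt2, Fabp3 and Slc25a20 were higher in Running in both library sets, Bdh1, Cd36 and Hadha were lower in both, and the other 3 differed in sign. Bdh1 had the largest fitted difference, -1.51 (SE 0.94, edgeR adjusted p = 1), and -0.32 without Sedentary replicate 1. IIa/IIx-like and slow-like nuclei made up 45.8% of fibre-typed nuclei in Sedentary and 25.7% in Running in the 10x set, and 24.1% and 27.3% in the second set. Split by myosin UMIs, the fast nuclei of the second set were 2977 IIb-like and 295 IIa/IIx-like in Sedentary and 3275 and 128 in Running. The IIa/IIx-like share of fast nuclei was then lower in Running in that set too.

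Fabp3 and Cd36 had the smallest unadjusted p-values in the fast classes, in opposite directions. In IIb-like nuclei 0% of 15969 genes were called by edgeR (245 at an unadjusted p under 0.05, none by DESeq2), and 2 members were below that unadjusted limit. Fabp3 stood at 11 and 37.9 in Sedentary and 29.4 and 58.6 in Running, a fitted difference of 1.01 (SE 0.36, edgeR adjusted p = 1), and 0.88 without Sedentary replicate 1. Fibro-adipogenic progenitor-like nuclei of the 10x set held Fabp3 at 18.3 in Sedentary and 19.5 in Running, so that the Sedentary level in IIb-like nuclei lay below that background. Cd36 differed by -1.05 (SE 0.46, edgeR adjusted p = 1), and this rested on Sedentary replicate 1, since the value was 0.10 without it. In that library fibro-adipogenic progenitor-like and muscle stem cell-like nuclei also held more Cd36, 177 and 212, than in Running replicate 1, 60.7 and 80.2. All 5 IIa/IIx markers had UMIs in the IIb-like nuclei of both libraries, at summed levels of 3202 in Sedentary replicate 1 and 956 in Running replicate 1, and their part in the difference was not tested.

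In IIa/IIx-like nuclei 0% of 14745 genes were called (308 at an unadjusted p under 0.05, Cd36 the only member, and 1 gene by DESeq2). Cd36 differed by -0.60 (SE 0.26, edgeR adjusted p = 1) and by -0.56 without Sedentary replicate 1. Fabp3 differed by 0.71 (SE 0.32, edgeR adjusted p = 1) and by 0.37 without that library. Bdh1 had the largest difference there, -1.23 (SE 0.56), and between -1.72 and -0.81 with each library left out. It stood at 11.7 and 29.0 in Sedentary and 3.90 and 15.6 in Running. In Myh2-led nuclei alone Bdh1 differed by -0.28 (SE 0.40). Myh2-led nuclei made up 18.6% and 10.1% of fibre-typed nuclei in Sedentary and 3.68% and 7.93% in Running, and the part of this was not tested. In Myh2-led nuclei Fabp3 was 87.0 and 148 in Sedentary and 216 and 202 in Running, the 2 groups did not overlap, and the fitted difference was 0.87 (SE 0.31, edgeR adjusted p = 1, with 0% of 9697 genes called and 214 at an unadjusted p under 0.05). Without Sedentary replicate 1 it was 0.43. The medians of the 10 genes were 0.05 in IIb-like nuclei and -0.07 in IIa/IIx-like nuclei, against -0.02 and -0.01 for all genes. The running difference did not pass a test of a difference between these classes for any member, with 0% of 17237 genes called and 254, no member among them, at an unadjusted p under 0.05.

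Another 45 genes of fat and ketone metabolism in 5 groups were read beside the 10. None was called in either direction in any of the 6 comparisons (over all nuclei, IIb-like and IIa/IIx-like nuclei, by age and by running). At an unadjusted p under 0.05 there were 1, 6 and 4 by age and 0, 0 and 3 by running, in that order of nuclei. Over all nuclei their median by age was -0.33 against 0.19 for all genes. It was -0.55 for the 11 other beta-oxidation enzymes, -0.42 for the 6 other ketone genes, -0.41 for the 10 regulators, -0.04 for the 10 genes of uptake, activation and carnitine, and 0.26 for the 8 genes of lipid droplets and lipolysis. By running it was 0.06 against -0.04, with group medians between -0.03 and 0.25.

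The genes named from that list had the largest fitted difference with the same sign in both library sets. By age, higher values in Old were those of Pparg, the master regulator of fat cells, at 1.99 (SE 0.90), Fabp4, a fatty acid carrier of fat and endothelial cells, at 1.03 (SE 0.59), and Lipe, hormone-sensitive lipase, at 0.94 (SE 0.40). Pparg stood at 116 and 24.0 in Young and 130 and 271 in Old, so that most of its difference lay in the second set. Without Old replicate 2 its sign turned, to -0.39, and without Old replicate 1 it was 3.12. Fabp4 and Lipe were 0.80 and 0.48 without Old replicate 2. Lower values were those of Etfdh, which passes electrons from beta-oxidation to the respiratory chain, at -0.78 (SE 0.44), Eci1, an enoyl-CoA isomerase, at -0.72 (SE 0.39), and the nuclear receptor Ppard at -0.51 (SE 0.36). In the 10x set Young and Old were nearly level for Etfdh (35.8 and 35.8) and Eci1 (23.3 and 23.0), while the second set held 56.9 and 31.5 for Etfdh and 74.3 and 49.2 for Eci1. Ppard stood at 75.6 and 66.7 in Young and 65.9 and 65.8 in Old. Without Old replicate 2 the 3 differences were -0.27, -0.43 and -0.34. EdgeR adjusted p-values of these 6 were all 0.693. Adipocyte-like nuclei made up 1.88% and 0.0887% of nuclei in Young and 3.07% and 2.35% in Old. All 8 adipocyte markers had UMIs in all 4 libraries, at summed levels of 537 and 257 in Young and 700 and 796 in Old, with Pparg itself in that list. Their part in the result was not tested.

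By running, higher values were those of Pdk4, a kinase that turns pyruvate dehydrogenase off, at 0.82 (SE 0.73), the mitochondrial carrier Ucp3 at 0.68 (SE 0.68) and Crat, carnitine acetyltransferase, at 0.47 (SE 0.46). Pdk4 stood at 103 and 122 in Sedentary and 200.2 and 182 in Running. Slc22a5, the carnitine transporter of the cell membrane, at -0.37 (SE 0.48), Etfa, an electron carrier of beta-oxidation, at -0.36 (SE 0.44), and Eci2 at -0.32 (SE 0.40) were lower. All 6 had an edgeR adjusted p of 1. Without Sedentary replicate 1 the difference of Ucp3 turned, to -0.10, that of Crat was 0.21 and that of Slc22a5 was -0.74.

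Over 32 sums of library and class (8 classes in the 4 10x libraries), the genes whose log2 level was most like that of Bdh1 were Emsy (Pearson r 0.74), Ces5a (0.68), Sox2ot (0.65), Hspa1l (0.65) and BC048679 (0.64). Those most like Cd36 were Sipa1l2 (0.83), Arid5b (0.79), Nrp1 (0.79), Prelid2 (0.77) and Tns1 (0.76). The points share libraries and depths and carry no p-value. Sums of a class in which Bdh1 had few UMIs weigh on its r.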

How the data were processed

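Nuclei of 8 libraries were counted per gene. The authors deposited raw UMI counts as filtered matrices on mm10, made with Cell Ranger 6.1.2 for 10x Genomics and PISA 0.12b for the second set, per the labels and methods. Whether introns were counted is not given in the sources used here. The deposited counts were used without scaling by the authors. As in the study, nuclei needed over 200 genes, below 6000 genes and less than 6% mitochondrial UMIs. Library totals were 4765224 to 44389777 UMIs. Doublets stayed in. Nuclei of each set were clustered (scanpy 1.11.5, leidenalg 0.10.2, 2000 variable genes, 30 components, 20 neighbours, resolution 1) without the 10 genes and the pathway list, and clusters were named from 18 marker lists, with limits set after the clusters had been seen. Ppara is both a IIa/IIx marker and a pathway gene, and Acsl1 and Pparg are both adipocyte markers and pathway genes. Sums omit 12 mitochondrial and 78 ribosomal protein genes.

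UMIs were summed per library and class (at least 20 nuclei) and tested with edgeR 4.0.16 in R 4.3.3 (TMM, filterByExpr, Benjamini-Hochberg, 0.05) in 1 fit over the 8 libraries, with terms for group and library set. Residual degrees of freedom were 3, and the common dispersion over all nuclei was 0.294. DESeq2 1.42.0 was an alternative. On counts simulated with these means and dispersions, the age comparison over all nuclei recovered 2% of genes changed 4-fold and 52% of those changed 8-fold (50 genes each, 20329 run), and in IIa/IIx-like nuclei 28% and 62% (14745 run). Members and lists were chosen with earlier results of these data known. Named pathway genes were those at a mean log2 CPM of 4 or more with the largest difference of 1 sign in both sets, up to 3 each way. Coordinates are from GENCODE vM21. Promoter windows are from RefSeq (GRCm38.p6), which had 10 windows for 9 of the 10 genes, none for Cpt1b.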

Additional observations from a re-analysis of the deposited data

How the results depend on the processing

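The replicate number follows the library set, which was a term of the fits by age and by running, so these fits already held the replicate block (each library had its own term in the interaction fit). Without the replicate block, that is with the library set left out, the number of members called was 0 in each of these comparisons over all, IIb-like and IIa/IIx-like nuclei. The alternatives were other scaling, DESeq2, low counts kept, the library set left out of the fit, only the 4 libraries of a comparison, each library left out, all deposited nuclei, no nuclei with the highest doublet scores, thinning to 500 UMIs, mitochondrial and ribosomal protein genes kept, another cluster resolution and fast nuclei split by myosin UMIs. All deposited nuclei, thinning and kept mitochondrial and ribosomal genes were run over all nuclei only, the Myh2-led fit only with libraries left out, and the interaction without DESeq2, 4-library fits or fits without the set. The number of members called (9 by age, 10 by running) stayed at 0 wherever an alternative was run, except for Running against Sedentary in IIb-like nuclei, where leaving out each library gave between 0 and 1. The 1 was Cd36 without Sedentary replicate 2, at -1.80 (SE 0.42, edgeR adjusted p = 0.0038), and without Sedentary replicate 1 its sign turned, to 0.10. The age difference of Acadvl between the fast classes was -0.081 without Old replicate 1, and at most 1.51. The cause was not tested. Leaving out 1 library leaves 1 in its group, which is then taken to vary like the others. The median of the 9 genes by age over all nuclei ranged from -1.25 without Young replicate 1 to 0.05 without Old replicate 2. Scaling by total UMIs moved the median of all genes by age over all nuclei from 0.19 to 0.61 and that of the 9 genes from -0.42 to -0.02. The Myh2-led nuclei with each library left out were added after seeing the data. Fits of only 4 libraries called 4 genes by age and 81 by running over all nuclei, no member among them. Depth limits Bdh1 and Cpt2 in the Myh2-led nuclei of Young replicate 1, with 4 and 2 UMIs.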
